A study of Mus musculus with 6 samples.

Results

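The 8 genes described here are genes of articular cartilage, including its surface layer, and of the embryonic joint: Prg4, Abi3bp, Cilp, Cilp2, Gdf5, Wnt9a, Erg and Creb5. They were taken by gene symbol from a table of 35976 genes, all 8 had a row, and all 8 passed the filter on low counts that left 13761 genes for testing. In the cells compared, lubricin mRNA (Prg4) stood at 128.9 to 137.6 CPM (read counts scaled to library size by TMM) in the 3 libraries with the mutant histone and at 68.0 to 95.6 CPM in the 3 control libraries. Cilp, a matrix gene at very low level, was counted 19, 39 and 133 times in the mutant libraries and 6, 0 and 0 times in the control libraries. It passed the filter through the mutant libraries alone. The other 6 genes overlapped between the groups, and over all genes tested the groups did not overlap in 19.4%. No gene of the table passed the main test (edgeR) after adjustment, so none of the 8 is called as changed. Another test, DESeq2, called 367 of 15154 genes, Prg4 and Cilp among them, and the place of Cilp there is not support.

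The libraries came from mouse chondrocytes isolated at embryonic day 18.5 from hind limb articular cartilage of a C57BL/6 x 129S4/SvJae background and grown in monolayer for 16 population doublings. Both groups carried an inducible histone H3.3 transgene and both received doxycycline at 2 µg/ml. In the H3K9M group (3 libraries, replicates 1, 3 and 5) the transgene had methionine for lysine at residue 9, and the labels give methylation of that residue as suppressed. In the H3WT group (3 libraries, replicates 1, 2 and 4) the transgene was wild type, and no group without a transgene or without doxycycline was analysed here. The promoter of the transgene is not given in the sources used here. Nothing in the labels says whether replicates were separate cultures or animals, so p-values measure only the spread between these libraries, which may be technical. Values for single libraries are listed in the order of replicates 1, 3 and 5 for H3K9M and 1, 2 and 4 for H3WT.

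Joints form where a stripe of flattened cells, the interzone, interrupts a cartilage template. Interzone cells express the growth factor gene Gdf5 and the signalling ligand gene Wnt9a, and their descendants give rise to articular cartilage and synovium. The cells that stay at the joint surface secrete lubricin, a mucin-like proteoglycan that lowers friction, under the influence of TGF-beta and EGF receptor signals, and the transcription factor gene Creb5 is needed for this in cultured articular chondrocytes. Cells lower in the cartilage make little lubricin and more of the type II and type IX collagens.

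Total counts ran from 15113675 to 19606082 per library. The first principal component of log2 CPM took up 35.5% of the variance, and the groups mixed along it. H3K9M replicate 3 (51.0) and H3WT replicate 2 (49.1) stood apart from the rest at its positive end, far from H3WT replicates 1 (-56.2) and 4 (-51.5). Results of the joint genes that rest on the first pair are therefore given with and without it. The second component (28.8%) separated the groups, with H3K9M at 38.4, 39.8 and 19.0 and H3WT at -11.4, -71.5 and -14.4. The cells had the chondrocyte marker Col2a1 at 4913 to 14110 CPM and Acan at 136.5 to 721.8 CPM, and Fmod, a matrix gene on the tendon list, at 572.2 to 1673 CPM. Of 11 endothelial markers, 4 (Cdh5, Tie1, Emcn and Cldn5) had no count in any library. Of 5 tested skeletal muscle markers, 4 (Myod1, Des, Myh3 and Tnnt3) were higher in all 3 H3K9M libraries than in all 3 H3WT libraries, as were 10.7% of all tested genes. Myod1, Myh3 and Tnnt3 would not have reached the filter on low counts from their H3WT libraries alone, so their place in this count is not support. In H3WT their counts were 0, 20 and 0 for Myod1, 12, 0 and 0 for Myh3, and 5, 40 and 28 for Tnnt3. The summed muscle level was 163.5, 232.2 and 26.9 CPM in the H3K9M libraries against 13.2 to 32.0 CPM in H3WT, of which Acta1, whose groups overlapped, made up 26.2, 3.27 and 24.0 CPM. In H3K9M replicate 5, where the sum was lowest, Myod1 was at 4.29 CPM against at most 1.04 CPM in H3WT and Tnnt3 at 5.97 CPM against at most 2.08 CPM. The sum over 9 macrophage and blood markers was 10.4 to 21.5 CPM in H3K9M and 5.07 to 13.1 CPM in H3WT, with overlap. Of the 9, 5 (Ptprc, Adgre1, Aif1, Tyrobp and Hbb-bs) had no count in any library, and Cd14 made up 41.7% of the sum. In bulk RNA, fewer cells of a type and less RNA per cell cannot be told apart.

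Promoter sequences of 5 of the 8 genes (Cilp, Cilp2, Wnt9a, Creb5 and Erg) were found in the RefSeq table of GRCm38.p6, the build called mm10 in the submitters' processing notes, and Prg4, Gdf5 and Abi3bp had no entry. Each sequence runs from 250 bases before a start site to 50 bases after it, read along the gene's strand. Cilp and Wnt9a are shown because their levels followed that of Prg4 most closely, Cilp2 because it is the paralogue of Cilp and did not, and Creb5 because its product binds cAMP response elements. Capitals mark TATAA (the core of a TATA box) and TGACGTCA (the palindromic cAMP response element).
Cilp, chr9:65264930-65265229, plus strand: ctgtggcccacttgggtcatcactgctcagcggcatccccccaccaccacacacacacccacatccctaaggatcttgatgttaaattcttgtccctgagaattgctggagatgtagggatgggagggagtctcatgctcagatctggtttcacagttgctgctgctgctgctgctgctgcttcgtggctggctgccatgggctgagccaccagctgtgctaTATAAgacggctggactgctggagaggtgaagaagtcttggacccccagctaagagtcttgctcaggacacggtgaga
Cilp2, chr8:69887343-69887642, minus strand: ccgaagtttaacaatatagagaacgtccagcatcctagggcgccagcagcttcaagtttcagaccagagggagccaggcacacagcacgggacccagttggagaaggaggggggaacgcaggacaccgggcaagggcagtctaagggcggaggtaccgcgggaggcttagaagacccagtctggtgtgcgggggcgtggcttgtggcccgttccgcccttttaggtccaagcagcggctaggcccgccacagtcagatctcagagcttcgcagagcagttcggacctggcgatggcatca
Wnt9a, chr11:59306680-59306979, plus strand: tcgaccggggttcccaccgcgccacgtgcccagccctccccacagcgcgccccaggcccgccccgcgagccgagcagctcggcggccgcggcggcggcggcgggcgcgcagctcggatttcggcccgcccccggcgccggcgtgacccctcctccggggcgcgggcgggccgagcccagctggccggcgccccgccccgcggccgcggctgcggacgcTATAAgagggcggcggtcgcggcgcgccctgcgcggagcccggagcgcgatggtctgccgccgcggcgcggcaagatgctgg
Creb5, chr6:53287053-53287352, plus strand: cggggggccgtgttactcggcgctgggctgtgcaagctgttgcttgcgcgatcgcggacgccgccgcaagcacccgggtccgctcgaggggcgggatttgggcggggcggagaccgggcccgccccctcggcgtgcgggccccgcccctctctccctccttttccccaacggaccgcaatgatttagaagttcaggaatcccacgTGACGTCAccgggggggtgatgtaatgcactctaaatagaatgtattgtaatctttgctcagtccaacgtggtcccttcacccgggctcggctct

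The Cilp and Wnt9a windows share TATAA, at positions -28 and -32 relative to their start sites, and differ widely in CpG dinucleotides. Cilp has 4 CpG, and 31.4% of all 300-base promoter windows have fewer. Wnt9a has 58, and 99.9% have fewer. Cilp2 has 18 CpG and neither capitalised motif, and the median over all windows is 7. The Creb5 window has 31 CpG and holds TGACGTCA at position -45. On either strand, TATAA occurs in 24.9% and TGACGTCA in 1.79% of the 32851 windows. The AP-1 site TGANTCA and the ETS core CCGGAAG were also searched on both strands, and occur in 7.81% and 8.86% of windows. A second Creb5 window held TGANTCA at position -45, one of the 3 Erg windows held TATAA on its opposite strand, and no window of the 5 genes held CCGGAAG. These are matches of letters and do not show binding.

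The comparison asked whether chondrocytes expanded with suppressed H3K9 methylation hold these joint transcripts at another level than chondrocytes expanded with the control histone. With edgeR's quasi-likelihood test and Benjamini-Hochberg adjustment over 13761 genes, 0% of genes had an adjusted p under 0.05, as did 0 of the 8 joint genes. At an unadjusted p under 0.05 lay 12.2% of all genes (1677, of which 6.42% of all genes were higher and 5.77% lower in H3K9M), and 2 of the 8 joint genes, Prg4 and Cilp, both higher. Cilp passed the filter on low counts through its H3K9M libraries alone, so it had to differ in order to be tested, and its place in this count and the next is not support. The 3 values of one group all exceeded those of the other in 19.4% of all genes (10.7% with H3K9M above and 8.68% with it below), and again in Prg4 and Cilp. Of the 8 genes, 6 had a log2 fold change above 0 and 2 below, and the median was 0.28 against -0.0029 over all genes tested. These counts describe a list of 8 genes and are not a test of it.

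Prg4 (RefSeq gene 96875, chr1:150449412-150466221, minus strand) encodes lubricin. It had 137.6, 130.9 and 128.9 CPM in the H3K9M libraries, and 95.6, 68.0 and 74.6 CPM in the H3WT libraries. The H3K9M values lay close together, with a coefficient of variation of 3.44% against 18.1% in H3WT, and the lowest of them was above the highest H3WT value. The means were 132.5 ± 4.56 and 79.4 ± 14.4 CPM (SD, n = 3 each), a level 1.67-fold higher in H3K9M, and the log2 fold change was 0.74 ± 0.15 (SE). Its p of 0.000961 in the edgeR test ranked 71st of all genes, and the adjusted p was 0.18. Without H3K9M replicate 3 and H3WT replicate 2 the log2 fold change was 0.66 (adjusted p 0.0711, edgeR), and leaving out the 6 libraries one by one moved it between 0.65 and 0.89.

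The DESeq2 Wald test placed Prg4 past the threshold (log2 fold change 0.73, adjusted p 0.00925), where it called 367 of 15154 genes in all. Exons of Prg4 overlap those of Tpr, a nuclear pore gene on the opposite strand, and whether counting used strand is not stated. The Tpr means were 359.2 ± 17.7 CPM with the mutant and 376.3 ± 34.1 CPM with the control histone (SD, n = 3 each), with an edgeR log2 fold change of -0.067 ± 0.12 (SE) and an adjusted p of 0.875. The part of reads from Tpr in the Prg4 counts was not tested. The summed level of the muscle markers above was 163.5, 232.2 and 26.9 CPM in the H3K9M libraries. In H3WT it was 13.2 to 32.0 CPM, with overlap. The part of muscle RNA in the Prg4 difference was not tested.

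Prg4 was next set against type II collagen within each library, a ratio that no library scaling can move. The log2 ratio of Prg4 to Col2a1 was -5.17, -5.40 and -6.03 in the H3K9M libraries and -5.68, -7.69 and -7.05 in the H3WT libraries. The groups overlapped, because H3WT replicate 1 had a higher ratio than H3K9M replicate 5. The means of H3K9M and H3WT were -5.53 ± 0.44 and -6.81 ± 1.03 (SD, n = 3 each), a difference of 1.28 with a two-sided exact permutation p of 0.2, where 0.1 is the smallest value that 3 against 3 libraries allow. With Acan, the gene of the proteoglycan aggrecan, in place of Col2a1 the difference was 0.76 (exact permutation p 0.6).

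**Figure D1:**
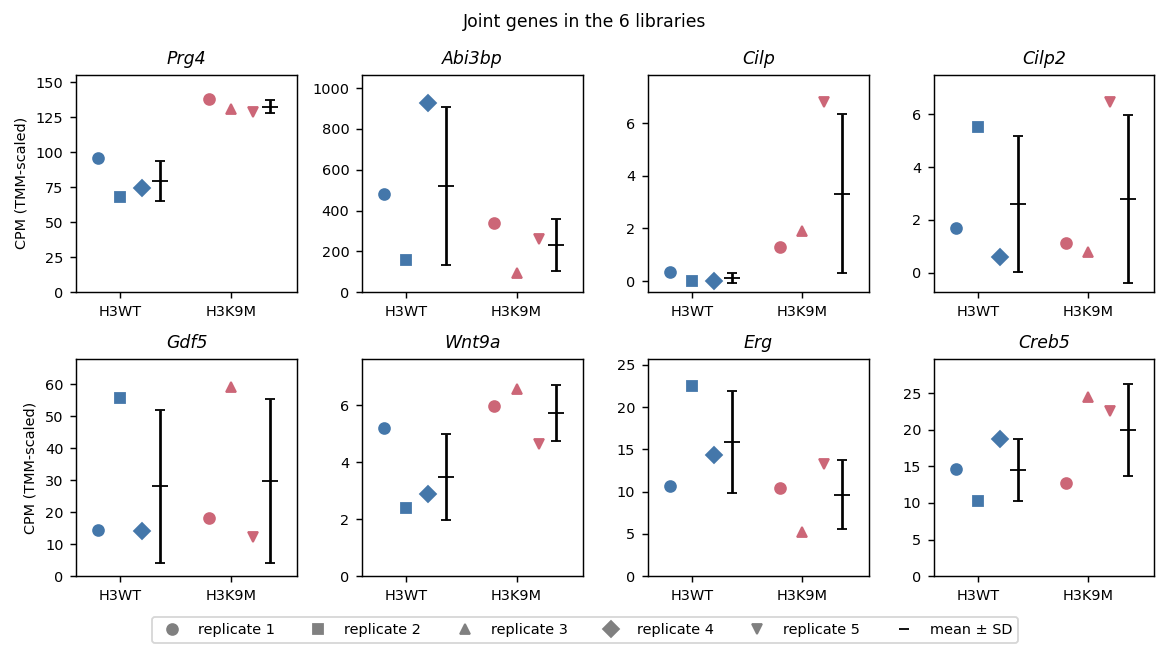
Level of each joint gene in CPM (vertical axes, each with its own range) in the 3 H3WT and 3 H3K9M libraries, with 1 point per library, the symbol giving the replicate number, and bars for mean ± SD. Prg4 lies at 128.9 to 137.6 CPM in H3K9M, above the 68.0 to 95.6 CPM of H3WT, and Gdf5 is high in 1 library of each group.

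Cilp (gene 214425, chr9:65265180-65280614, plus strand) encodes cartilage intermediate layer protein, a matrix protein of articular cartilage that antagonises growth factors of the TGF-beta and IGF families. It had 19, 39 and 133 counts in the H3K9M libraries and 6, 0 and 0 counts in the H3WT libraries. In CPM this was 1.27, 1.88 and 6.79 against 0.337, 0 and 0, and 0 counts allow up to 0.156 CPM in H3WT replicate 2 and 0.177 CPM in H3WT replicate 4 (3 counts, covering counting error only). The groups did not overlap, although the H3K9M libraries themselves spread widely. The means of H3K9M and H3WT were 3.31 ± 3.02 and 0.112 ± 0.194 CPM (SD, n = 3 each), and edgeR fitted a log2 fold change of 4.81 ± 1.41 (SE; p 0.00881, adjusted p 0.261).

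The size of the fitted change of Cilp, at 6 control counts, is loose. Without H3K9M replicate 5, which had the highest Cilp level, the log2 fold change was 3.75 (p 0.0708, adjusted p 0.524, edgeR). DESeq2 gave 4.88 with an adjusted p of 0.00681. Cilp was not tested where every library had to have 10 counts.

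Cilp2 (gene 68709, chr8:69880366-69887392, minus strand), the paralogue of Cilp, had 1.14, 0.773 and 6.48 CPM in the H3K9M libraries and 1.68, 5.50 and 0.589 CPM in the H3WT libraries. It was high in 1 library of each group, and only in H3K9M replicate 5 were both paralogues at their own maximum. The edgeR log2 fold change was 0.11 ± 1.03 (SE) with an adjusted p of 0.98. Its sign turned when H3K9M replicate 5 (-1.43) or either of H3WT replicates 1 (-0.12) and 4 (-0.35) was left out, and in limma-voom (-0.027). No other gene's transcript shared at least 90% identity over 200 bases with Cilp or Cilp2 (blastn), and the same held for the other 6 genes.

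Abi3bp (gene 320712, chr16:56477801-56690135, plus strand), whose product is a secreted collagen-binding matrix protein, had 341.1, 91.9 and 258.7 CPM in the H3K9M libraries. In the H3WT libraries it had 483.3, 157.0 and 927.9 CPM. The lowest library of each group was the one that stood apart on the first component, and the groups overlapped. The edgeR log2 fold change was -1.18 ± 0.73 (SE) with an adjusted p of 0.559. It was -0.47 without H3WT replicate 4. Without H3K9M replicate 3 and H3WT replicate 2 the means were 299.9 and 705.6 CPM and the log2 fold change -1.22 (edgeR p 0.00893, adjusted p 0.122).

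Gdf5 (gene 14563, chr2:155941023-155945367, minus strand), the ligand of the BMP family that marks the interzone, had 18.2, 59.0 and 12.2 CPM in the H3K9M libraries. In the H3WT libraries it had 14.3, 55.8 and 14.1 CPM. H3K9M replicate 3 and H3WT replicate 2 thus held the high values, and the other 4 libraries lay between 12.2 and 18.2 CPM. The edgeR log2 fold change was 0.087 ± 0.80 (SE) with an adjusted p of 0.98. It was 0.10 without that pair, -0.88 without H3K9M replicate 3 alone, 1.08 without H3WT replicate 2 alone, and -0.23 without H3WT replicate 1 or 4. Across the 6 libraries, Pearson's r with the first principal component was 0.82 for Gdf5 and -0.94 for Abi3bp, whereas for the other 6 genes it lay between -0.11 and 0.37. These coefficients describe libraries that share the same scaling and are not tests. Gm15557, on the opposite strand, overlaps exons of Gdf5 in GENCODE M21.

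Wnt9a (gene 216795, chr11:59306849-59333552, plus strand), a Wnt ligand of the forming joint, had 5.96, 6.57 and 4.64 CPM in the H3K9M libraries and 5.22, 2.39 and 2.89 CPM in the H3WT libraries. H3WT replicate 1 lay inside the H3K9M range and the other H3WT libraries below it. The edgeR log2 fold change was 0.71 ± 0.42 (SE) with an adjusted p of 0.529. It was 1.12 without H3WT replicate 1 and 0.39 without H3K9M replicate 3 and H3WT replicate 2.

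The 2 transcription factors among the 8 genes had log2 fold changes of opposite sign. Erg (gene 13876, chr16:95359169-95586600, minus strand), an ETS factor of articular chondrocyte precursors that is also an endothelial gene, had 10.5, 5.22 and 13.3 CPM in the H3K9M libraries and 10.7, 22.5 and 14.3 CPM in the H3WT libraries. The lowest and the highest value were those of H3K9M replicate 3 and H3WT replicate 2. The edgeR log2 fold change was -0.72 ± 0.40 (SE) with an adjusted p of 0.501, and -0.063 without that pair. Summed endothelial markers were at 2.80 to 4.29 CPM in H3K9M and 5.11 to 8.31 CPM in H3WT, of which Egfl7 made up 67.2%, and the defining marker Cdh5 was at 0 throughout.

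Creb5 (gene 231991, chr6:53287226-53700364, plus strand), the factor tied to lubricin expression, had 12.7, 24.4 and 22.6 CPM in the H3K9M libraries and 14.7, 10.2 and 18.7 CPM in the H3WT libraries. Its groups overlapped, with H3K9M replicate 1 below the higher H3WT libraries although Prg4 was highest there. The edgeR log2 fold change was 0.46 ± 0.32 (SE) with an adjusted p of 0.603, against 0.096 without H3K9M replicate 3 and H3WT replicate 2. Gm25818, on the same strand, overlaps exons of Creb5 in GENCODE M21.

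**Figure D2:**
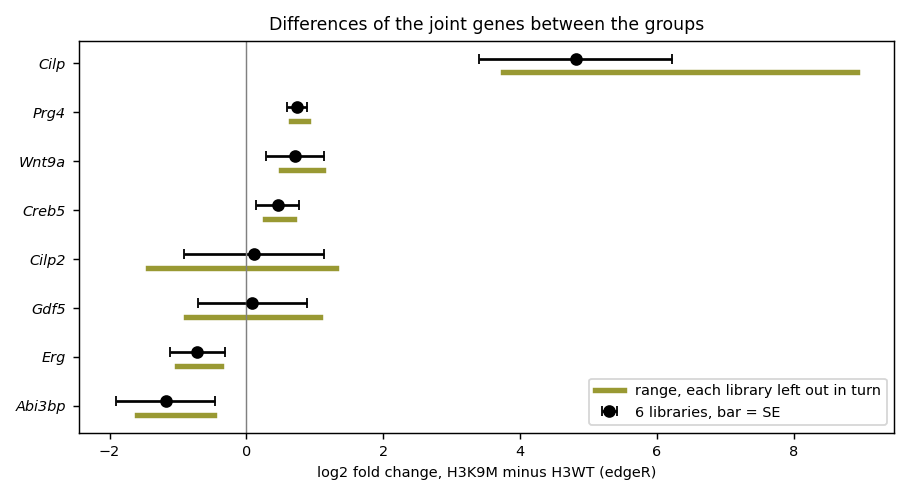
Log2 fold change of each joint gene, H3K9M minus H3WT, with its standard error over 6 libraries (black), and the range when each library was left out in turn (olive). Prg4 ranges from 0.65 to 0.89, and the ranges of Gdf5 and Cilp2 cross 0.

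Levels were compared between genes per kilobase of the longest GENCODE M21 transcript. Abi3bp had the highest mean over the 6 libraries (72.5 CPM per kilobase, from 17.7 to 178.6), followed by Prg4 (24.8, from 16.0 to 32.3), Gdf5 (12.5), Erg (3.92), Creb5 (2.18), Wnt9a (1.39), Cilp2 (0.625) and Cilp (0.413). Gdf5 exceeded Erg in 6 of 6 libraries. Every other neighbouring pair changed order in at least 1 library, and Cilp2 exceeded Cilp in 3 of 6. In H3K9M replicate 3, Prg4 at 30.7 CPM per kilobase was above Abi3bp at 17.7. Over the 6 libraries the highest level was 2.02 times the lowest for Prg4, 2.39 times for Creb5, 10.1 times for Abi3bp and 11 times for Cilp2.

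The 8 genes did not vary together as one group. Among the 28 pairs, Pearson's r of log2 CPM over the 6 libraries was above 0.7 for 3, namely Prg4 with Cilp (0.92, Spearman's rho 0.75), Prg4 with Wnt9a (0.91, rho 0.89) and Cilp with Wnt9a (0.76, rho 0.64). It was below -0.7 for 3, namely Erg with Wnt9a (-0.87, rho -1), Gdf5 with Abi3bp (-0.81, rho -0.66) and Prg4 with Erg (-0.72, rho -0.89). Prg4 and Creb5 had r 0.49 and Cilp and Cilp2 had r 0.21. The 6 points of each coefficient share their libraries and the difference between the groups, so they are given as a description.

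**Figure D3:**
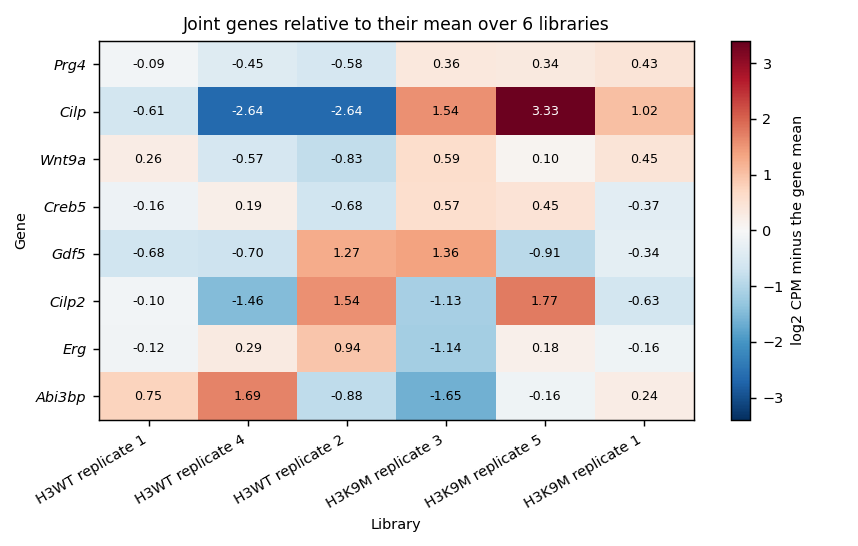
Log2 CPM (prior count 2) of each joint gene minus its mean over the 6 libraries, genes in rows and libraries in columns, ordered so that H3WT replicate 2 and H3K9M replicate 3 stand in the middle. Prg4 and Cilp lie below their mean in H3WT and above it in H3K9M, while Gdf5 is high (1.27 and 1.36) and Abi3bp low (-0.88 and -1.65) in the middle pair.

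Among 10748 other tested genes with a mean of at least 5 CPM, the 5 whose log2 CPM was most like that of Prg4 over the 6 libraries were Nop16, Pla2g12a, Ucp2, Med28 and Fcf1, with Pearson's r of 0.99 each. Of these 10748 genes, 272 had an r above 0.9, so such likeness is not particular to the 5. Ucp2, a mitochondrial carrier gene, had 37.9, 44.1 and 35.9 CPM in the H3K9M libraries and 15.4, 5.76 and 6.01 CPM in the H3WT libraries (edgeR log2 fold change 2.12 ± 0.39 SE, adjusted p 0.17). In all 5 the groups did not overlap, as in Prg4, but they were chosen for likeness to Prg4, so this is no separate result. Over all genes tested, the groups did not overlap in 19.4%.

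Other genes of the joint surface went in both directions, and those with the smallest p-values were lower in H3K9M, whereas Prg4 was higher. Of 13 superficial zone and lubrication genes, 11 were tested, 0 were higher and 4 were lower in H3K9M at an unadjusted p under 0.05, against a background of 6.42% and 5.77% of all genes, and none passed after adjustment. Of the 11, 5 had a log2 fold change above 0 and 6 below, and the median was -0.21. Has2, a hyaluronan synthase gene, had 15.01, 13.2 and 12.0 CPM in the H3K9M libraries and 22.3, 22.5 and 20.7 CPM in the H3WT libraries (edgeR log2 fold change -0.70 ± 0.18 SE, adjusted p 0.236). Its groups did not overlap, and neither did those of Clu, the gene of the secreted chaperone clusterin, at 24.6 to 35.5 CPM against 36.9 to 174.4 CPM (log2 fold change -1.83). Vit had a log2 fold change of -2.07 and Sfrp2, a secreted Wnt modulator, one of -3.97, and in both the groups overlapped.

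Of 16 interzone and joint progenitor genes, 12 were tested, and 1, the transcription factor gene Osr1, had an unadjusted p under 0.05, no larger a share than the 12.2% of all genes. Osr1 was at 21.1 to 29.4 CPM in H3K9M and 28.3 to 83.5 CPM in H3WT (edgeR log2 fold change -1.23 ± 0.37 SE, adjusted p 0.28). Its groups overlapped. The list's median was -0.32. Of the genes not tested, Dcx had no count in any library.

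Factors known to act on Prg4 were then examined. All 17 were tested, and 0 were higher and 1 was lower at an unadjusted p under 0.05, a share near the 5.77% of all genes that were lower. The median log2 fold change was -0.049. The lower one was Tgfbr2, the type II TGF-beta receptor, at 172.8 to 231.6 CPM in H3K9M and 246.2 to 462.8 CPM in H3WT (edgeR log2 fold change -0.72 ± 0.24 SE, adjusted p 0.308), without overlap.

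On the GDF5 pathway, 15 of 15 genes were tested, with 1 higher and 5 lower at an unadjusted p under 0.05 (6.42% and 5.77% of all genes), a median of -0.17 and none past adjustment. Smad9, a receptor-regulated SMAD, had 32.0, 24.8 and 33.8 CPM in the H3K9M libraries and 48.2, 48.6 and 51.6 CPM in the H3WT libraries (edgeR log2 fold change -0.71 ± 0.16 SE, adjusted p 0.19). The BMP-responsive Id genes went in different directions, with Id4 at a log2 fold change of -2.25 and Id2 at 0.60. The receptor Ror2 had -0.58.

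On the canonical Wnt pathway, 17 of 18 receptors and targets were tested, with 0 higher and 5 lower at an unadjusted p under 0.05, beside 6.42% and 5.77% of all genes, and none past adjustment. The median log2 fold change of the list was -0.82, whereas that of the ligand Wnt9a was 0.71. The receptor gene Fzd1 had 47.8, 30.1 and 37.9 CPM in the H3K9M libraries and 95.2, 58.2 and 98.0 CPM in the H3WT libraries (edgeR log2 fold change -1.12 ± 0.25 SE, adjusted p 0.188). Nkd1, a feedback inhibitor of the pathway, had 1.21, 0.145 and 2.91 CPM in H3K9M, from only 18, 3 and 57 counts. In H3WT it had 14.9, 6.49 and 25.7 CPM (edgeR log2 fold change -3.46, adjusted p 0.255). Neither gene overlapped between the groups. Apcdd1, a further Wnt inhibitor, had a log2 fold change of -1.37 and the receptor gene Fzd7 one of -0.86.

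Relatives of the 2 transcription factors showed 1 gene of 12 tested at an unadjusted p under 0.05 (12.2% of all genes), Etv4, at 7.30 to 10.6 CPM in H3K9M and 4.62 to 6.46 CPM in H3WT (log2 fold change 0.73). Among markers listed for growth plate chondrocytes, Col2a1 and Acan included, all 14 tested genes had a log2 fold change below 0 (median -0.96). Over all 13761 tested genes, 6934 had one below 0. Of the 14, 2 had an unadjusted p under 0.05, Col9a1 (-1.89) and Col9a2 (-2.13), where 12.2% of all genes had one. All 14 overlapped between the groups. H3WT replicate 2 held the highest value of each of the 14, and their fold changes without that library are not given here. H3WT replicate 2 held the largest sum of these markers, 18665 CPM against 6564 to 12864 CPM in the other 5 libraries, and it had the lowest Prg4 level. H3WT replicate 1, whose marker sum of 6564 CPM was the lowest, had the highest Prg4 of its group. The part of this shift in the Prg4 difference was not tested. Of 5 tested tendon markers, 1 was higher and 1 lower at an unadjusted p under 0.05, beside 6.42% and 5.77% of all genes. The tendon transcription factor gene Scx was at 75.1 to 90.7 CPM in H3K9M and 33.6 to 51.8 CPM in H3WT (edgeR log2 fold change 0.91, adjusted p 0.19). Fmod was lower, at 572.2 to 881.4 CPM against 795.2 to 1673 CPM with overlap (log2 fold change -0.93, adjusted p 0.294). Among 7 tested synovial markers 0 had an unadjusted p under 0.05, beside 12.2% of all genes.

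**Figure D4:**
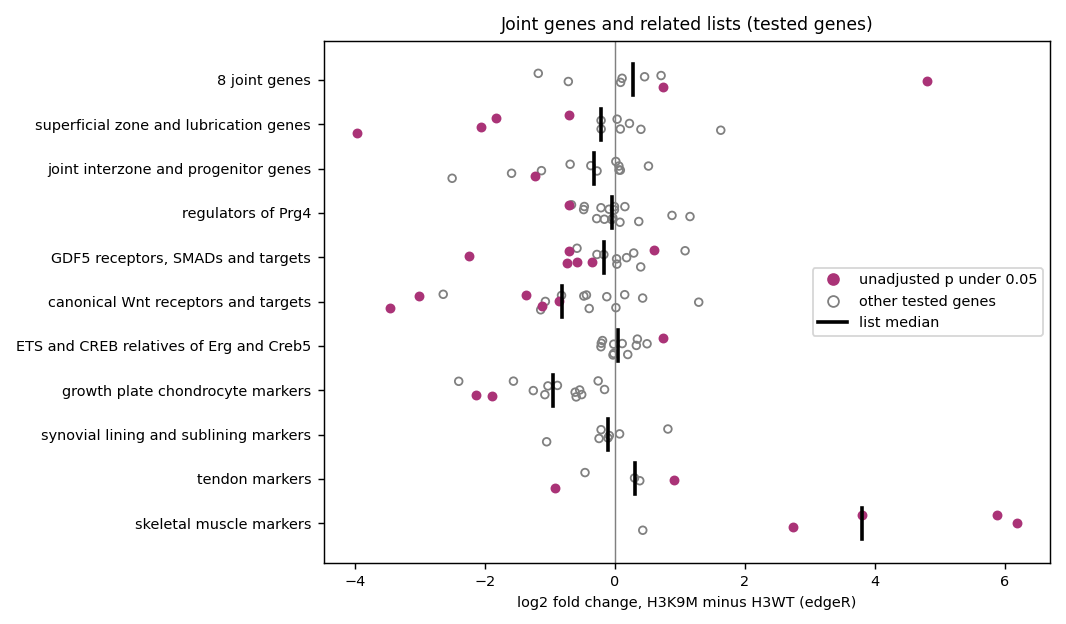
Log2 fold change, H3K9M minus H3WT, of the tested genes of each list (1 point per gene, filled where the unadjusted p was under 0.05), with the list median as a black bar and the median of all tested genes as a grey line. The 8 joint genes have a median of 0.28, the canonical Wnt list one of -0.82 and the growth plate markers one of -0.96.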

How the data were processed

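Polyadenylated RNA of 6 chondrocyte samples was sequenced from Tecan Universal Plus libraries, per the labels' protocols. The authors deposited 1 table of raw read counts per gene symbol, not normalized, as judged from whole numbers with unequal totals. HISAT2, featureCounts, DESeq2 and the build mm10 are named in the submitters' processing notes without versions. Annotation, strand and multi-mapping settings are not given in the sources used here. Groups and replicate numbers came from the titles. Columns of samples outside the series numbered 0.

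The fit used edgeR 4.0.16 under R 4.3.3: filterByExpr on the groups, TMM scaling and a robust quasi-likelihood fit over 6 libraries with genotype as the only term, adjusted by Benjamini-Hochberg over 13761 genes (threshold 0.05). The standard error is the log2 fold change divided by the square root of F. Log2 CPM used a prior count of 2. The computation was tested on simulated counts. Alternatives were DESeq2 1.42.0, limma-voom (limma 3.58.1), DESeq2's size factors, library size alone, 2 other filters, non-robust estimation and leaving out libraries. The 8 genes and the 12 lists were chosen with earlier results of these data known. From each list at most the 4 genes with the smallest p under 0.05 were named for their change, besides markers listed at 0 or leading a sum, and Col2a1 and Acan served as reference. Transcript lengths, overlaps and similarity (blastn 2.17.0) used GENCODE M21, and coordinates and promoters RefSeq GRCm38.p6.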

Additional observations from a re-analysis of the deposited data

How the results depend on the processing

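No paired analysis was possible because the groups share only replicate number 1. The count of called genes was 0 in the reported fit (1677 at an unadjusted p under 0.05), and it was 367 with DESeq2, 36 when every gene with a count was tested, and 0 to 91 on omission of single libraries, with 91 without H3WT replicate 2 and 2 without H3K9M replicate 3. Leaving out both of these libraries, an alternative chosen after the data were seen, gave 302, none of them among the 8 joint genes. The causes were not tested. DESeq2, which called 367 of 15154 genes, alone called joint genes, Prg4 (log2 fold change 0.73) and Cilp (4.88). Cilp had 6, 0 and 0 counts in H3WT and passed the main filter through H3K9M alone, so its call is not support. On omission of single libraries the log2 fold change ranged from 0.65 to 0.89 for Prg4, 3.75 to 8.93 for Cilp, 0.51 to 1.12 for Wnt9a, 0.27 to 0.70 for Creb5, -1.01 to -0.37 for Erg and -1.60 to -0.47 for Abi3bp. The 8.93 for Cilp was fitted against control libraries without a count and depends on the prior count. The sign turned for 2 genes. Gdf5 ran from -0.88 to 1.08 and Cilp2 from -1.43 to 1.31, and limma-voom also turned Cilp2 (-0.027). Without both libraries Cilp2 was at 1.76. The other settings kept the sign of all 8 genes wherever they were tested. The difference in the ratio of Prg4 to Col2a1 ranged from 0.83 to 1.84 on omission of single libraries and was 0.77 without both libraries. At 0 to 133 counts, Cilp and Cilp2 are limited by depth.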
